A study of Mus musculus with 55 samples.

Results

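The comparison set subcutaneous white adipose tissue of corticosterone-treated mice kept at 13 °C against that of placebo mice kept at 13 °C. It was chosen by the sample labels: 9 of the 55 libraries of the series, 4 from corticosterone (numbered 1, 3, 4 and 5) and 5 from placebo (numbered 1 to 5). All mice were male C57BL/6NRj animals, 10 weeks old, that received corticosterone through the drinking water or placebo for 4 weeks. The other libraries used below came from the same depot at 22 °C (5 corticosterone, 4 placebo) and from gonadal white and interscapular brown fat at 13 °C (5 and 5 each). Areas of cryosections were collected by laser capture microdissection, and full-length cDNA libraries (SMART-Seq2, a protocol that does not mark strand) were made from a few nanograms of total RNA. The labels do not tie libraries to animals or say how areas were chosen, so the p-values measure the spread between these libraries, which may in part be technical, and are too small if libraries share an animal.

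Corticosterone is the main glucocorticoid of rodents. It binds the glucocorticoid receptor, which enters the nucleus, raises the transcription of some genes and lowers that of others, and also acts on the circadian clock of peripheral tissues. Subcutaneous white fat stores triglyceride and, in a cool environment, can gain brown-like adipocytes with many mitochondria that release heat through uncoupling protein Ucp1.

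The 9 libraries held between 8622178 and 56450653 counts, and mitochondrially encoded transcripts took 3.42 to 9.03% of them. All 22 listed genes of white adipocytes, the labelled tissue's main cells (among them Adipoq and Plin1), were detected in every one of the 9 libraries. Epithelial markers set 4 libraries apart. The mean level of 21 epithelial genes was 1.88 log2 CPM (counts per 1000000) in placebo library 3 and 1.31, 2.88 and 3.44 in corticosterone libraries 3, 4 and 5, against −3.75 to −2.53 in the other 14 subcutaneous libraries. For Krt18, a keratin of simple epithelia, placebo libraries 1 to 5 held 0.0421, 0.0682, 27.4, 0.305 and 0.231 CPM, and corticosterone libraries 1, 3, 4 and 5 held 0.0974, 21.7, 94.7 and 98.9 CPM. Epithelial transcripts were thus carried by 3 of the 4 corticosterone and 1 of the 5 placebo libraries, and their part in the results was not tested beyond the refits given below. In tissue of mixed cells, fewer cells of a type and less RNA per cell cannot be told apart.

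**Figure D1:**
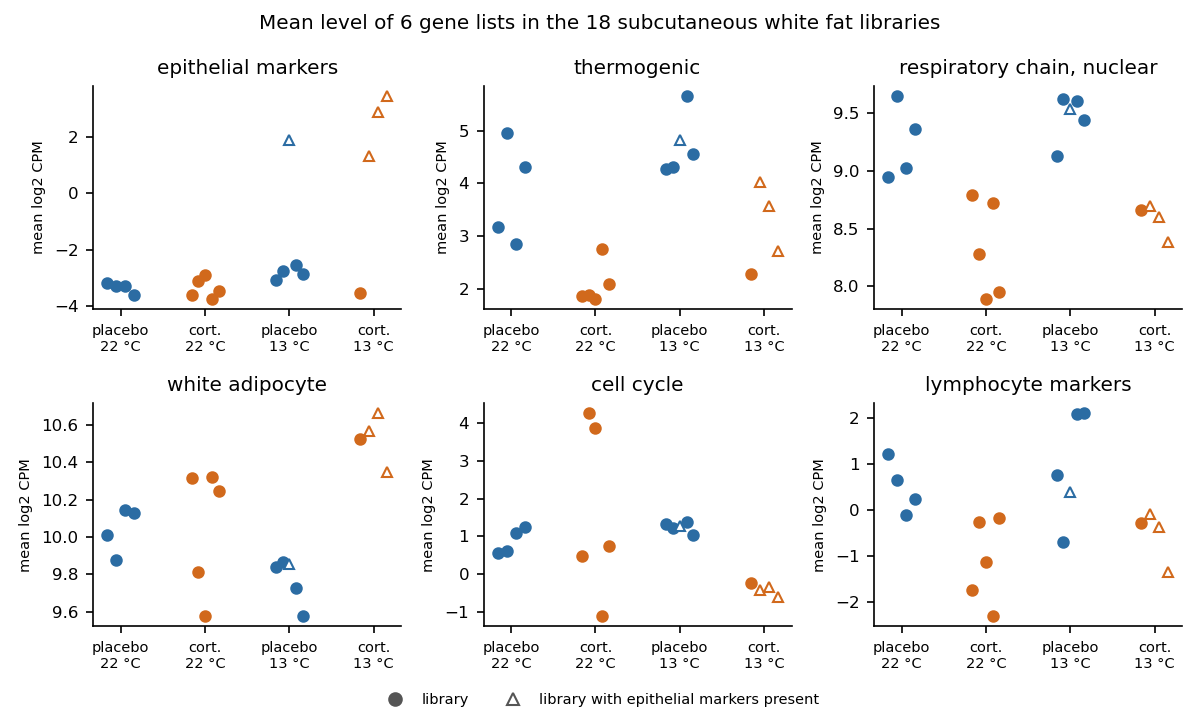
Mean log2 CPM of 6 gene lists (vertical axes) in each of the 18 subcutaneous white fat libraries, grouped by treatment and temperature; open triangles mark the 4 libraries with epithelial markers. At 13 °C the placebo and corticosterone libraries do not overlap for the thermogenic, respiratory chain, white adipocyte and cell cycle lists.

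Of 19003 genes tested, 276 rose with corticosterone at 13 °C (1.45%) and 217 fell (1.14%), at an adjusted p under 0.05 (edgeR quasi-likelihood test with Benjamini-Hochberg adjustment, the meaning of adjusted p throughout). Together they made up 2.59% of the genes tested, and the median log2 fold change over all genes was 0.01. Scaling by library totals alone, which moved that median to 0.08, gave 347 higher and 184 lower. In 433 of the 493 called genes the 4 corticosterone libraries lay wholly above or wholly below the 5 placebo libraries. Over all genes tested that held for 8.53% (4.36% above, 4.17% below). Without adjustment edgeR placed 2929 of the 19003 genes under 0.05. Leaving out the 4 libraries with epithelial markers left 1 corticosterone library against 4 placebo libraries, the lone library being assumed to vary like the other groups, and 36 calls. With the epithelial level as a covariate 199 genes were called, 187 of them among the 493. Both refits were added after the data were seen. Of the 91 called genes named in the text, 14 kept their call without those libraries and 53 with the covariate, and 34 lost it in at least 1 fit without a single library.

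The most certain rise was Dtx4, a Deltex-family ubiquitin ligase linked to Notch signalling (chr19:12466338-12501454, GRCm38). Placebo libraries held 6.56, 4.85, 11.1, 7.01 and 6.70 CPM and corticosterone libraries held 67.2, 77.2, 86.6 and 52.1 CPM. The groups were far apart, with a log2 fold change of 3.28 ± 0.28 (SE) and an adjusted p of 2.11e-06. The other large rises included Agt (angiotensinogen, 4.02), Nnat (neuronatin, 3.45), Plagl1 (3.03), Peg3 (3.02), Prrg3 (2.92), the retinaldehyde dehydrogenase Aldh1a1 (2.58), haptoglobin Hp (2.55), Cd164l2 (2.48), Stxbp6 (2.34) and Adcyap1r1, a receptor for the neuropeptide PACAP (2.23), all as log2 fold changes. The large falls were Dbp (−4.10), Elovl3 (−3.85), Irf4 (−3.84), Aspg (−3.19), Pcsk4 (−3.06), Cox7a1 (−3.05), Elovl6 (−2.98), Usp2 (−2.92), Cidea (−2.87), Chchd10 (−2.81), Hlf (−2.80) and Crtac1 (−2.65). Dbp, Usp2 and Hlf belong to the clock list described next, and Elovl3, Cox7a1 and Cidea to the thermogenic list. Irf4, a transcription factor that adipocytes also use, had 19.9, 26.1, 59.8, 72.7 and 190.2 CPM in placebo and 7.45, 6.40, 2.40 and 4.27 CPM in corticosterone libraries. Its SE was 0.64 and its adjusted p 0.00241. The asparaginase gene Aspg held 39.3 to 73.3 CPM in placebo and 2.92 to 9.98 CPM in corticosterone libraries.

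**Figure D2:**
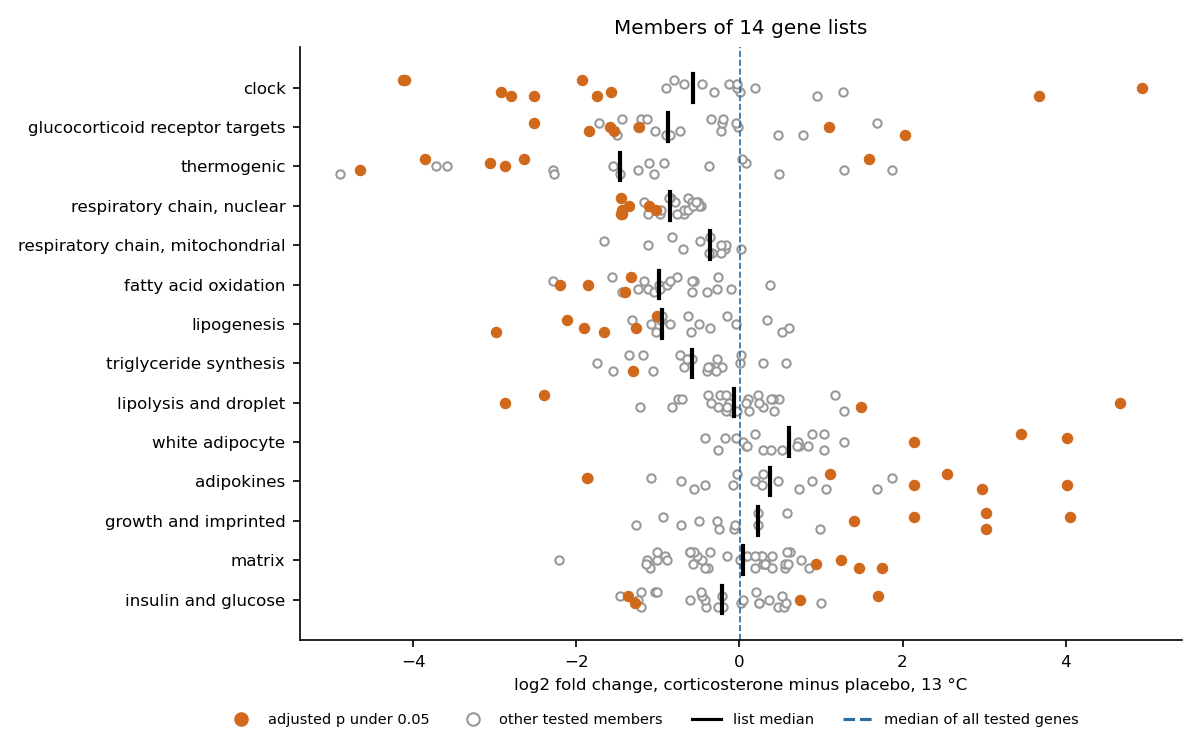
Log2 fold change of each tested member of 14 gene lists (horizontal axis), corticosterone minus placebo at 13 °C; filled points passed the test, black bars are list medians and the dashed line is the median of all tested genes. All 27 nuclear respiratory chain genes lie below 0, while the lists of white adipocyte and adipokine genes have medians above 0.

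The circadian clock runs on a loop in which Arntl (BMAL1) with Clock or Npas2 activates genes through E-box elements, the period and cryptochrome proteins repress that activation, and output factors such as Dbp, Hlf and Tef carry the rhythm to other genes. Of 22 clock genes tested, 2 rose and 8 fell (1.45% and 1.14% of all genes). The median log2 fold change was −0.56 against 0.01 over all genes. With the epithelial covariate the counts were 2 and 7. The libraries carry no sampling hour in the labels.

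The activators that rose were Arntl and its relative Npas2. Arntl (chr7:113207465-113314126) held 1.01, 0.819, 3.23, 2.00 and 2.31 CPM in placebo libraries and 24.2, 32.3, 16.5 and 23.1 CPM in corticosterone libraries. Npas2 held 0.210, 0.136, 1.20, 0.218 and 0.116 CPM in placebo and 13.3, 16.6, 12.4 and 10.3 CPM in corticosterone libraries. Every corticosterone library exceeded every placebo library for both genes, as held for 4.36% of all genes. The log2 fold changes were 3.68 ± 0.40 (adjusted p = 4.11e-05) for Arntl and 4.94 ± 0.69 (adjusted p = 4.33e-04) for Npas2, whose placebo values rest on few counts. Clock itself held 19.1 to 28.5 and 32.2 to 63.6 CPM without overlap, at an adjusted p of 0.0756.

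The output factors moved the other way. Dbp (chr7:45705088-45710203) held 28.0, 42.6, 29.3, 27.7 and 23.3 CPM in placebo libraries and 1.51, 0.651, 2.92 and 2.01 CPM in corticosterone libraries. The fall was −4.10 ± 0.47 on the log2 scale (adjusted p = 8.18e-05), and the groups did not overlap. Hlf (−2.80) and Tef (−1.74) fell on the same scale, Tef with a mean of 129.8 CPM ± 13.5 (SD, n = 5) in placebo and 38.8 ± 17.4 (SD, n = 4) in corticosterone libraries.

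Among the repressors, Per1, Per2, Ciart and the nuclear receptor Nr1d2 fell. Per1 held 23.1, 49.2, 46.5, 34.2 and 54.4 CPM in placebo and 7.16, 3.40, 5.89 and 12.3 CPM in corticosterone libraries (log2 fold change −2.52 ± 0.35, adjusted p = 4.35e-04). Ciart, a repressor of the Clock and Arntl pair, held 7.62, 10.1, 11.2, 9.53 and 8.44 CPM against 0.244, 1.05, 0.114 and 0.659 CPM (−4.13 ± 0.71, adjusted p = 0.00239). Nr1d2 had a log2 fold change of −1.93 and Per2 of −1.57, and the deubiquitinase Usp2, a clock-controlled gene, of −2.92. None of these 5 genes overlapped between the groups, as held for 433 of the 493 called genes (4.17% of all genes lay wholly lower). Nr1d1, the paralog of Nr1d2, did not follow: it held 49.5 to 138 CPM in placebo and 73.7 to 125 CPM in corticosterone libraries, with a log2 fold change of −0.03 (95% interval −0.68 to 0.62). Per3, with a log2 fold change of −0.90, missed the threshold (adjusted p = 0.153), and Cry1 stood at −0.32.

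**Figure D3:**
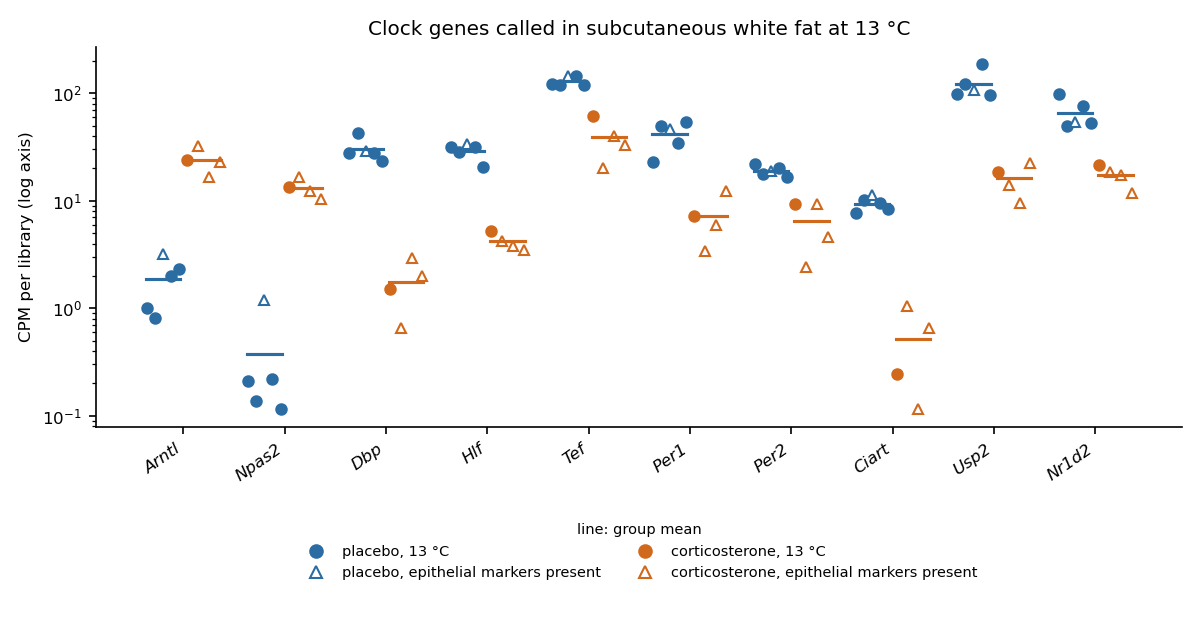
CPM of the 10 called clock genes in each library at 13 °C (log axis); circles and open triangles are libraries, triangles mark those with epithelial markers, and lines are group means. Arntl and Npas2 are higher in all 4 corticosterone libraries, while Dbp, Hlf, Tef, Per1, Per2, Ciart, Usp2 and Nr1d2 are lower in all 4.

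Promoter windows of clock genes are shown because the called genes include several with the E-box hexamer, the element that Arntl complexes bind. Sequences are from RefSeq (build GRCm38.p6) and run 5′ to 3′ over the 250 bases before an annotated start. The search used CACGTG, which reads the same on both strands. Among the 22 clock genes, windows were found for 2 that rose, 7 that fell and 10 others, and at least 1 window held the hexamer in 0, 3 and 2 of them. Over all 27025 genes with a window of that length 6.86% did so. The windows are Ciart at chr3:95882229-95882478 (minus strand), Per1 at chr11:69098699-69098948 (plus strand) and the upstream and downstream starts of Tef at chr15:81802423-81802672 and chr15:81811164-81811413 (plus strand). Capitals mark the hexamer.
Ciart: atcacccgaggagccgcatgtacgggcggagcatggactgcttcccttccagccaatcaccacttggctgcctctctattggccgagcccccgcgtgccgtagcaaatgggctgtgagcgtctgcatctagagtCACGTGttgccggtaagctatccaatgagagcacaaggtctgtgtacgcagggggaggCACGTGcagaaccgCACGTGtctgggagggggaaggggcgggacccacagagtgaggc
Per1: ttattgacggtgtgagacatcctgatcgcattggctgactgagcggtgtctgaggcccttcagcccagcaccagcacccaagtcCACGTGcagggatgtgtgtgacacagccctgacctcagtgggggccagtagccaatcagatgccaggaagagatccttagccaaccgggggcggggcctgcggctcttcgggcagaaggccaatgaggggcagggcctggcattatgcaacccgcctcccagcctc
Tef upstream start: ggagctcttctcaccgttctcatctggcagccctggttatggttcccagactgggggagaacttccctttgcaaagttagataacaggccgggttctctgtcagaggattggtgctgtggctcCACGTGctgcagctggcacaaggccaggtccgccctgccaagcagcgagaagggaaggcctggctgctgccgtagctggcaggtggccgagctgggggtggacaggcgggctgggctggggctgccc
Tef downstream start: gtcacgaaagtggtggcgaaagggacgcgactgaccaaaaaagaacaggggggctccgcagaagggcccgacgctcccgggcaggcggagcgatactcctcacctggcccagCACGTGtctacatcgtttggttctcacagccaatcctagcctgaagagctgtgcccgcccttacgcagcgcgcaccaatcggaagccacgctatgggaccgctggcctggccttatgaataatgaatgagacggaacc
The Ciart window holds the hexamer 3 times, beginning 116, 58 and 44 bases before the start. These matches describe the letters only, since no binding was measured.

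Textbook targets of the glucocorticoid receptor were lower as a list, with members called in both directions. Of 26 tested, 2 rose and 5 fell (1.45% and 1.14% of all genes). In this list 5 had a log2 fold change above 0, and the median was −0.87. The list's mean level was 6.36 to 7.11 log2 CPM in placebo and 5.85 to 6.32 in corticosterone libraries, without overlap. Sgk1, a kinase that glucocorticoids induce in many tissues, was lower: 171, 149, 207, 258 and 185 CPM in placebo and 32.8, 66.2, 59.7 and 56.5 CPM in corticosterone libraries. The log2 fold change was −1.85 ± 0.25 (adjusted p = 2.29e-04), without overlap. Errfi1, an inhibitor of the epidermal growth factor receptor, Nfkbia, the inhibitor of NF-kappa-B, and the transcription factor Klf9 fell too, with log2 fold changes of −1.59, −1.54 and −1.23; the fifth was Per1, described above. Klf9 kept its call in 9 of 21 alternative fits and missed the threshold with the epithelial covariate (adjusted p = 0.187). The 2 that rose were the sulfotransferase Sult1a1 (1.10) and the small G protein Rasd1 (2.03). Rasd1 held 146, 177, 139.6, 150.3 and 114 CPM in placebo and 198, 560.4, 606 and 1004 CPM in corticosterone libraries, and its adjusted p was 0.0377. The 3 high values came from the libraries with epithelial markers: the log2 fold change was 0.44 without those libraries (adjusted p = 1) and 1.30 with the covariate (adjusted p = 0.504), and the call held in 9 of 21 alternative fits.

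The targets most often used as readouts of receptor activity varied within the corticosterone group. Fkbp5, a co-chaperone that dampens the receptor, held 79.5, 105, 70.1, 107 and 222 CPM in placebo and 265, 69.5, 19.9 and 49.8 CPM in corticosterone libraries (log2 fold change −0.21, 95% interval −1.37 to 0.95). Tsc22d3 (GILZ) held 236 to 426 CPM in placebo libraries and 813, 136, 155 and 164 CPM in corticosterone libraries. Corticosterone library 1, the 1 without epithelial markers, was the highest of its group for both genes, and the other 3 lay below the placebo range for Tsc22d3. Dusp1 (−0.23) and Zbtb16 (−0.85) did not pass the test. None of 16 genes of the receptor and corticosteroid activation list passed by edgeR (2 at an unadjusted p under 0.05) or DESeq2, and 1 rose by weighted limma. Nr3c1, which encodes the glucocorticoid receptor, was at 0.43 (95% interval −0.08 to 0.93). Hsd11b1, the enzyme that regenerates active glucocorticoid, held 437 to 706 CPM in placebo and 585 to 1337 CPM in corticosterone libraries, at an adjusted p of 0.290.

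Among promoters of these target genes, the window of one annotated Sgk1 start is shown because it holds both a palindromic receptor element and the E-box hexamer. The element was searched on both strands as G, any base, ACA, any 3 bases, TGT, any base and C, which reads the same on either. At least 1 window held it in 1 of 5 genes with a window that fell, 0 of 1 that rose and 2 of 16 others, against 0.44% of 27025 genes with a window. Of the 6 Sgk1 windows, the other 5 lack it. The match lies 188 to 176 bases before the start, and the window is chr10:21993640-21993889 (plus strand). Capitals mark the hexamer first and the receptor element second.
Sgk1: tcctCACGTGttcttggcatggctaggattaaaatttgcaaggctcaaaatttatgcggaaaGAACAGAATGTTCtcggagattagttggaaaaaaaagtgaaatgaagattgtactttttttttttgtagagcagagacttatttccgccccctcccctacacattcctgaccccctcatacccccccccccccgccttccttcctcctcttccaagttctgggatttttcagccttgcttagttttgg

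Several thermogenic genes were lower. Of 23 tested, 5 fell and 1 rose (1.14% and 1.45% of all genes), and the median log2 fold change was −1.47. In 10 the corticosterone libraries all lay below the placebo libraries (4.17% of all genes did so). The list's mean level was 4.27 to 5.65 log2 CPM in placebo and 2.28 to 4.03 in corticosterone libraries. Cidea, a lipid droplet protein of brown and brown-like adipocytes, held 413, 625, 983, 1207 and 805 CPM in placebo and 53.7, 250.4, 103 and 32.4 CPM in corticosterone libraries (log2 fold change −2.87 ± 0.68, adjusted p = 0.0276). The cytochrome oxidase isoforms Cox7a1 (−3.05) and Cox8b (−2.65), the elongase Elovl3 (−3.85) and the fatty acid transporter Slc27a2 (−4.65, chosen after its value was seen) also fell. Lhx8, a transcription factor of the brown fat list, rose by 1.59 from 2.08 to 4.52 CPM in placebo to 7.16 to 13.2 CPM in corticosterone libraries. With the epithelial covariate 2 of the list were lower and none was higher, and the median was −1.84.

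Ucp1 itself did not pass the test, though its groups did not overlap. Placebo libraries held 92.4, 125, 324, 1107 and 290.2 CPM and corticosterone libraries held 9.11, 56.4, 28.4 and 35.4 CPM. The spread among placebo libraries was wide, and the log2 fold change of −3.58 ± 1.05 had an adjusted p of 0.0808. Dio2, which makes active thyroid hormone in thermogenic fat, showed the same pattern (−3.73, adjusted p = 0.0817). The regulators Ppargc1a (−0.38) and Prdm16 (0.03, 95% interval −0.60 to 0.66) overlapped between groups.

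Nuclear genes of the respiratory chain lay below placebo as a list. Of 27 tested, 7 fell (1.14% of all genes) and none rose, none had a log2 fold change above 0 (9611 of 19003 genes did), and 13 did not overlap between groups (4.17% of all genes lay wholly lower). The median log2 fold change was −0.85. The 7 included the cytochrome oxidase subunits Cox7b (−1.46), Cox5a (−1.45) and Cox6a1 (−1.35) and the Rieske protein Uqcrfs1 (−1.44). Cox5a held 629, 898, 709.6, 963 and 693 CPM in placebo and 289, 281, 298 and 274 CPM in corticosterone libraries (adjusted p = 0.0186). With the epithelial covariate no gene of the list was called, at a median of −0.80. The 13 mitochondrially encoded genes had a median of −0.36 and no call by edgeR (2 at an unadjusted p under 0.05) or weighted limma, and 1 fell by DESeq2; nuclear copies of these genes make their counts uncertain. Chchd10, a small mitochondrial protein that is abundant in brown fat, held 1529.5, 2688, 1390.0, 2310.2 and 1667 CPM in placebo and 242, 301, 285 and 262 CPM in corticosterone libraries. Its log2 fold change was −2.81 ± 0.37 (adjusted p = 2.11e-04).

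In fatty acid oxidation 4 of 24 genes fell (1.14% of all genes), none rose and the median was −0.98. The 4 were Acadl, a long-chain acyl-CoA dehydrogenase (−1.86), Hadha (−1.33) and Hadhb (−1.40), which form the trifunctional protein, and Ppara (−2.20), the nuclear receptor that controls such genes. Acadl held 1249, 1466, 1509.9, 2403 and 784 CPM in placebo and 272, 563, 365 and 435 CPM in corticosterone libraries. The epithelial covariate left 1 call in the list, with a median of −1.03. Both subunits of the carrier that brings pyruvate into mitochondria also fell, with log2 fold changes of −2.01 for Mpc1 and −1.64 for Mpc2. This pair was chosen after its values were seen, and Mpc1 shares sequence with a processed copy.

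**Figure D4:**
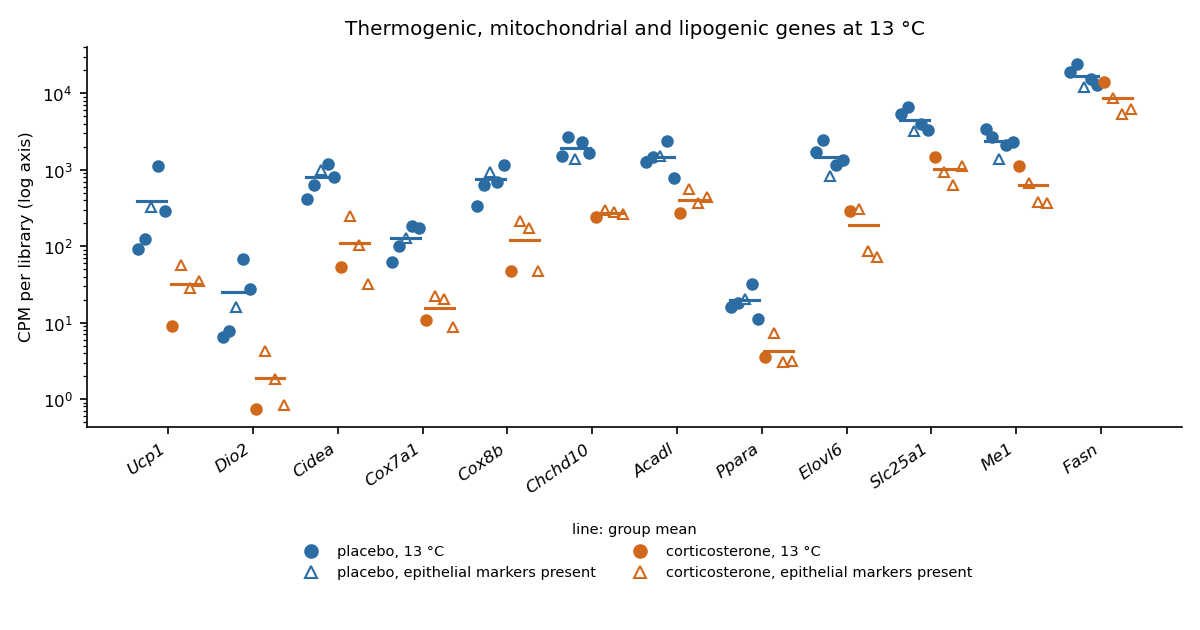
CPM of 12 thermogenic, mitochondrial and lipogenic genes in each library at 13 °C (log axis); symbols as in the plot of clock genes, with lines at group means. The groups overlap for Fasn and for no other gene drawn, and placebo libraries spread widely for Ucp1 and Dio2.

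Some lipogenic genes were lower. Lipogenic enzymes turn acetyl-CoA from citrate into fatty acids, with Fasn at the centre. Of 21 genes tested, 6 fell (1.14% of all genes) and none rose, with a median of −0.95. Elovl6, which lengthens palmitate, held 1697, 2434, 837, 1167 and 1324 CPM in placebo and 286, 309, 87.1 and 71.3 CPM in corticosterone libraries (log2 fold change −2.98 ± 0.51, adjusted p = 0.00234). The mitochondrial citrate carrier Slc25a1 (−2.11), malic enzyme Me1 (−1.91) and the elongase Elovl5 (−1.01) fell too. The core synthesis steps did not pass. Fasn held 19298, 24068, 12307, 15529 and 12828 CPM in placebo and 14005, 8832, 5407 and 6268 CPM in corticosterone libraries, with a log2 fold change of −0.96 (95% interval −1.80 to −0.12, adjusted p = 0.242). Acaca (−1.03), Acly (−1.08), Scd1 (−0.36) and Srebf1 (−0.63) missed the threshold as well. With the epithelial covariate 1 gene of the list was called, at a median of −0.52.

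Fat storage and release genes gave calls in both directions. Of 21 triglyceride synthesis genes, 1 fell, the phosphatidate phosphatase Lpin1 (−1.31), and the median was −0.58. By edgeR 10 of them had an unadjusted p under 0.05 (2929 of all 19003 genes did). That list's mean level was 7.14 to 7.79 log2 CPM in placebo and 6.64 to 6.98 in corticosterone libraries, without overlap. Of 30 lipolysis and droplet genes, 2 rose and 2 fell (1.45% and 1.14% of all genes). Corticosterone libraries lay wholly above placebo for 3 and wholly below for 5 (4.36% and 4.17% of all genes). G0s2, an inhibitor of the main triglyceride lipase, held 363, 465, 624, 525 and 419 CPM in placebo and 885, 1335, 1259 and 1894 CPM in corticosterone libraries (1.49 ± 0.32, adjusted p = 0.0134). Adrb3, the main beta receptor of rodent adipocytes, held 146 to 599 and 853 to 1192 CPM and missed the threshold (adjusted p = 0.155). The called genes also included Cidea, described above, and Adra2a, an alpha-2 adrenergic receptor, which held at most 0.231 CPM in placebo and 0.0487, 0.181, 2.35 and 2.43 CPM in corticosterone libraries, where libraries 4 and 5 alone lay above the placebo range. The lipases Pnpla2 (−0.35) and Lipe (−0.23) did not pass. Fabp5, a fatty acid chaperone, was the 1 gene of 15 uptake genes called (−1.80). In cholesterol synthesis, Hmgcs1 (1.82) rose and Insig1 (−1.67), which holds back sterol synthesis, fell among 19 tested.

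Several white adipocyte genes and secreted factors were higher. Of 22 white adipocyte genes, 3 rose (Nnat, Lep and Agt, against 1.45% of all genes), none fell, and the median was 0.61. Leptin (Lep), the satiety hormone of adipocytes, held 556, 219.7, 127, 202 and 111 CPM in placebo and 1696, 651, 652 and 1298 CPM in corticosterone libraries (log2 fold change 2.14 ± 0.44, adjusted p = 0.00904). Nnat held 237, 178, 303, 145 and 101 CPM against 1062, 1442, 3203 and 2738 CPM (3.45 ± 0.44, adjusted p = 1.87e-04). Agt, the precursor of angiotensin, held 4.17, 10.3, 9.15, 3.48 and 9.48 CPM against 326, 47.8, 23.5 and 75.3 CPM (4.02 ± 0.83, adjusted p = 0.0132). All 3 genes separated the groups, as did 433 of the 493 called genes (4.36% of all genes lay wholly higher). Adiponectin (Adipoq) held 2098 to 3239 CPM and 2935 to 6107 CPM and did not pass (0.73, adjusted p = 0.105).

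Among 22 adipokines, 5 rose and 1 fell (1.45% and 1.14% of all genes). Beside Lep and Agt these were Hp (2.55), Ccdc80 (1.11) and the Wnt inhibitor Sfrp5 (2.98), the last 2 with overlapping libraries. Sfrp5 rested on corticosterone library 5 (119 CPM against 2.75 to 12.4 in the other 3): without it the log2 fold change was 0.78 (adjusted p = 0.428). Hp held 885, 925, 1388, 822 and 2214 CPM in placebo and 9369, 4206, 5582 and 10076 CPM in corticosterone libraries. The fall was in Nrg4, a factor secreted by brown fat, with 123 to 206 CPM in placebo and 26.5 to 65.0 CPM in corticosterone libraries (−1.86 ± 0.30, adjusted p = 0.00110).

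Growth genes, several of them imprinted (expressed from 1 parental copy), rose in 5 of 17 cases and fell in none (1.45% and 1.14% of all genes). Peg3, an imprinted zinc finger gene, held 6.48, 3.72, 8.34, 8.14 and 12.5 CPM in placebo and 26.3, 54.6, 96.8 and 74.0 CPM in corticosterone libraries (3.02 ± 0.38, adjusted p = 1.80e-04). Plagl1, an imprinted zinc finger gene as well, held 5.55, 5.83, 5.16, 4.48 and 0.925 CPM against 34.4, 25.5, 42.0 and 44.2 CPM (3.03 ± 0.39, adjusted p = 1.86e-04). Igfbp3, which binds insulin-like growth factors, rose by 2.14 and the growth hormone receptor Ghr by 1.41. Mest, an imprinted gene of expanding fat named after its value was seen, held 2.48 to 10.6 CPM in placebo and 55.5, 9.73, 40.1 and 278 CPM in corticosterone libraries (4.06 ± 0.98, adjusted p = 0.0336). Without the 4 libraries with epithelial markers the log2 fold change was 1.80 for Peg3 (adjusted p = 0.308) and 3.01 for Plagl1 (adjusted p = 0.0487).

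Matrix genes went both ways, though all 4 that passed the test rose. Of 42 tested, 4 rose (1.45% of all genes), none fell, and the median was 0.05. By edgeR 18 had an unadjusted p under 0.05 (2929 of all 19003 genes did). Corticosterone libraries lay wholly above placebo for 6 and wholly below for 5 (4.36% and 4.17% of all genes). The basement membrane genes Lama4 (1.25) and Nid1 (0.94), the crosslinking enzyme Lox (1.46) and the protease inhibitor Timp4 (1.75) rose. The fibrillar collagen Col1a1 held 311 to 460.3 CPM in placebo and 133 to 224 CPM in corticosterone libraries, with no overlap, and did not pass (−1.02, adjusted p = 0.275). Of 22 progenitor genes 1 rose: Fgf10, a growth factor of the adipose stroma, held 45.1, 44.0, 52.8, 47.7 and 37.7 CPM against 90.9, 143, 118 and 71.1 CPM (1.22 ± 0.23, adjusted p = 0.00436). Anxa1, a glucocorticoid-linked annexin in the actin list, rose by 1.57, the 1 call among 29.

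In the insulin and glucose list of 29 genes, the pseudokinase Trib3 (1.70) and the glucose transport regulator Tbc1d4 (0.74) rose. Pyruvate kinase Pkm (−1.36) and the pyruvate dehydrogenase kinase Pdk2 (−1.27) fell. Over all genes 1.45% rose and 1.14% fell. Of 21 genes for the breakdown of branched-chain amino acids, the cytosolic transaminase Bcat1 rose (1.59). Of 24 genes of the ATF4 stress response, Trib3 rose and the serine synthesis gene Psph fell (−1.08). Complement C4b (0.93), which has a near-identical copy, and Hp rose and Nfkbia fell among 25 acute phase genes. No gene was called among 17 heat shock, 23 immediate early, 30 interferon, 28 ribosomal protein, 19 growth arrest, 8 metallothionein and zinc or 12 creatine and calcium cycling genes by edgeR, with 5, 4, 7, 1, 6, 1 and 0 at an unadjusted p under 0.05. Over all genes tested, 2929 of 19003 had such a p by edgeR. DESeq2 called 1 heat shock, 1 immediate early, 1 interferon and 1 growth arrest gene, and weighted limma 2, 1, 2 and 2 in those lists and 1 ribosomal protein gene.

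Markers of other cell types gave few calls. None of 21 macrophage (median log2 fold change −0.20), 22 lymphocyte (−1.72), 17 endothelial (−0.21), 19 skeletal muscle (0.75), 12 Schwann cell (−0.61), 8 erythrocyte (−0.67) or 18 cell cycle genes (−1.37) passed by edgeR. At an unadjusted p under 0.05 there were 1, 12, 5, 0, 2, 4 and 8 genes in these lists, in that order. Over all genes tested, edgeR placed 2929 of 19003 there. DESeq2 called 1 macrophage, 4 lymphocyte, 1 Schwann cell and 2 cell cycle genes, and weighted limma 2 lymphocyte and 2 endothelial genes. The cell cycle list had a mean level of 1.05 to 1.37 log2 CPM in placebo and −0.59 to −0.23 in corticosterone libraries, with 2 of 18 genes above 0 in log2 fold change. The lymphocyte list overlapped, at −0.70 to 2.10 and −1.34 to −0.08. Of 12 mural cell genes, Mcam rose (1.74) and Cspg4 fell (−1.58). Of 11 neutrophil and mast cell genes, the mast cell protease Cpa3 rose (1.74). That list had a median of −0.67, with 4 genes above 0, and Cpa3 kept its call in 8 of 21 alternative fits. Rises made up 1.45% and falls 1.14% of all genes. The 21 epithelial genes had a median log2 fold change of 2.82 and no call by edgeR, DESeq2 or weighted limma, with 8 at an unadjusted p under 0.05 by edgeR.

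The effect of corticosterone at 13 °C was set against that at 22 °C in the same depot, where 662 genes rose and 655 fell (6.93% in both directions). The test of the difference itself called 0 of 19003 genes by edgeR (0%). Without adjustment edgeR placed 1838 genes under 0.05, and its lowest adjusted p was 0.0824. With DESeq2 there were 164 calls, and 7 with weighted limma. At 22 °C corticosterone libraries 2 and 3 stood apart on macrophage markers, at a mean of 7.68 and 7.55 log2 CPM against 3.64 to 5.55 in the other 3, so values at 22 °C are also given without them, a refit added after the data were seen. That refit gave 407 rises and 331 falls at 22 °C and 0 calls for the difference. The clock list had a median of −0.56 at 13 °C and −1.08 at 22 °C (−0.74 without the pair), with 8 and 10 falls (9 without the pair). Arntl was at 3.68 and 3.59, Dbp at −4.10 and −4.75 and Per1 at −2.52 and −2.32. The lipogenesis list had 6 falls at 13 °C and 13 at 22 °C (8 without the pair), with Fasn at −0.96 and −1.97 and a difference of 1.01 (adjusted p = 0.587). Peg3 was at 3.02 and 0.74 (difference 2.28 ± 0.51, adjusted p = 0.158), and Fgf10 at 1.22 and −0.36 (difference 1.57 ± 0.32, adjusted p = 0.157). Zbtb16 was at −0.85 and 2.00 and Fkbp5 at −0.21 and 1.77, with adjusted p of 0.260 and 0.432 for the difference. None of these differences passed, which does not show that the effects were alike. Macrophage genes had a median of −0.20 at 13 °C and 1.58 at 22 °C, which was 0.05 without the pair. For cell cycle genes the medians were −1.37 and 2.14, the latter −0.56 without the pair.

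Against gonadal white fat at 13 °C, 0 genes had a higher and 5 a lower effect in subcutaneous fat (0.0225% of 22245 tested in a fit of all 55 libraries, from which the values of these last 2 paragraphs come). The direction depended on the fit: 91 higher and 98 lower were called in a fit of the groups compared, 500 and 457 by weighted limma, and 15 and 12 without placebo library 3. The glycolytic enzyme Pgam1 had a log2 fold change of −1.16 in subcutaneous and 0.46 in gonadal fat, a difference of −1.62 ± 0.30 (adjusted p = 0.0167). Lsm4 (difference −2.26), the ribosomal protein Rps2 (−1.95) and 2310061I04Rik (−1.84) were the next, and the fifth, Dnajc22, was low in both depots. Ucp1 stood at −3.55 and 3.84, and Cidea at −2.83 and 2.72. With an adjusted p of 0.138 for both, these differences did not pass.

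Against brown fat, 31 genes had a higher (0.139%) and 12 a lower effect (0.0539%) in subcutaneous fat, 0.193% together. Here too the balance depended on the fit, with 15 higher and 71 lower in a fit of the groups compared, 155 and 301 by weighted limma, and 54 and 60 with the replicate block. That block took same-numbered libraries of a treatment and temperature as the same animal across depots, which the labels do not state. Rasd1 had values of opposite sign, at 2.04 in subcutaneous and −2.75 in brown fat (difference 4.79 ± 0.75, adjusted p = 6.19e-04). The amino acid transporter Slc7a8, named outside the naming rules given below, was at 1.90 and −2.68 (difference 4.58 ± 0.63). Peg3 was at 3.04 and 0.35 (difference 2.69 ± 0.50, adjusted p = 0.00640) and Plagl1 at 3.04 and −0.38 (3.42 ± 0.70, adjusted p = 0.0167). In a fit of the subcutaneous libraries without those with epithelial markers, the subcutaneous value was 0.44 for Rasd1 and 1.80 for Peg3. That of Plagl1 stayed close to its full value, as given above. The nuclear RNA Neat1 was at 2.42 and −0.23, and Fmr1, which encodes an RNA-binding protein, at 1.53 and −0.70. Chchd10 was at −2.79 and 0.38, a difference of −3.17. Arntl was at 3.70, 3.51 and 3.31 and Dbp at −4.09, −3.90 and −3.92 in subcutaneous, gonadal and brown fat.

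**Figure D5:**
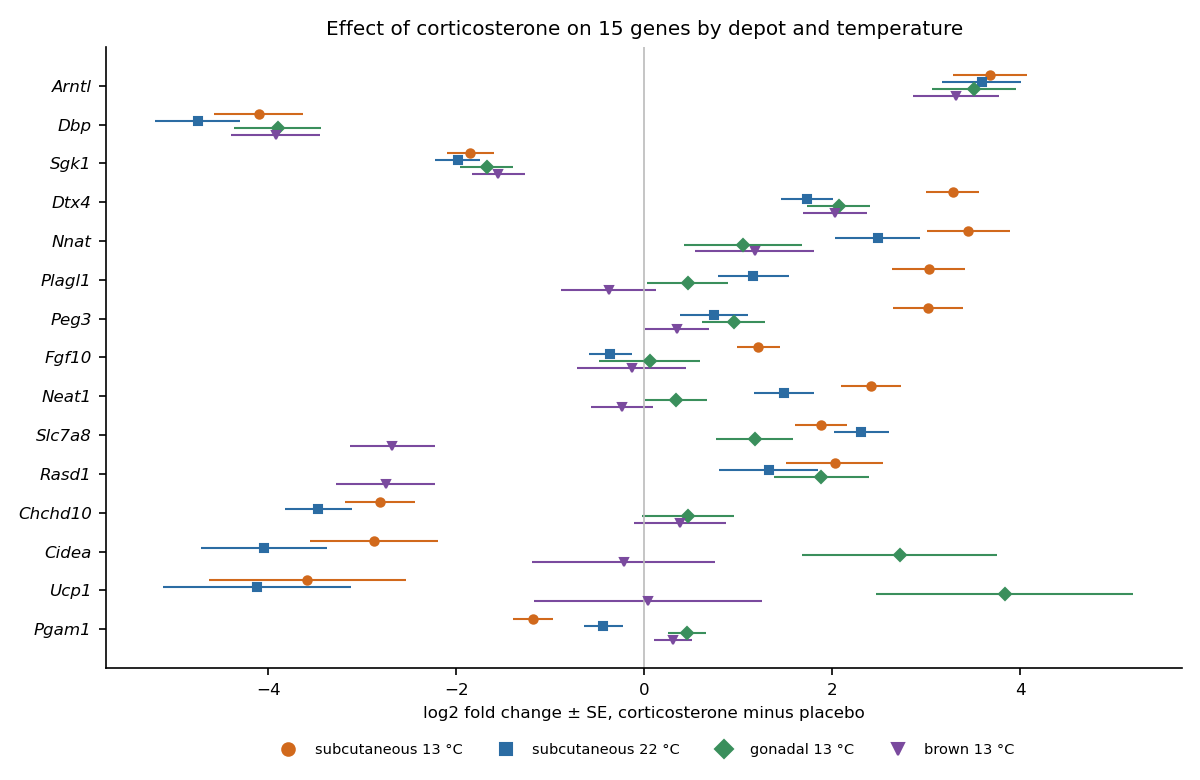
Log2 fold change with its standard error (horizontal axis) for 15 genes, corticosterone minus placebo; both subcutaneous values come from the 18-library fit, gonadal and brown values from the 55-library fit. Arntl, Dbp and Sgk1 lie close together in all 4 conditions, while Rasd1 and Slc7a8 are below 0 in brown fat alone.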

How the data were processed

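The deposited files hold raw read counts per Ensembl gene for each library, 31933 genes in all. Per the submitters' processing notes, the tools were FastQC, GSNAP and featureCounts 1.6.3, with build mm10. The annotation release, strand setting and way of treating shared reads were not given in the sources used here. The label protocols name laser capture microdissection and SMART-Seq2. Symbols and coordinates came from GENCODE M21 (GRCm38) by Ensembl identifier.

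The deposited counts were fitted in R 4.3.3 with edgeR 4.0.16 (filterByExpr with a minimum of 10 counts, TMM scaling, 1 mean per group, robust quasi-likelihood F test) over the 18 subcutaneous libraries for the effect at 13 °C and its difference from 22 °C, and over all 55 libraries for differences between depots. A gene was called at an adjusted p under 0.05 over all genes tested. CPM are counts per 1000000 of TMM-scaled library size; means over a list use log2 CPM with a prior count of 0.5. Depth, 8622178 to 56450653 counts, limits the precision of genes under about 1 CPM. The fits were tested on simulated counts. Alternatives used limma 3.58.1, DESeq2 1.42.0, other scalings, filters and library sets.

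Genes named were the 12 largest rises and falls among called protein-coding genes whose mean was 3 log2 CPM or more and no overlap between groups, up to 4 called genes per list and direction, the 6 smallest adjusted p per direction in comparisons between temperatures and depots, and textbook genes; exceptions are marked, and some genes that this rule names are not reported here. The comparison, lists and rules were chosen with earlier results of these data known. The labels do not say whether equal numbers share anything, and numbers were not taken as pairs. Same-numbered placebo and corticosterone libraries did not deviate together in every pair (r = 0.17, 0.03, 0.02 and −0.06), values too few to settle whether they are paired. Reads of antisense neighbours and near-identical copies cannot be separated.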

Additional observations from a re-analysis of the deposited data

Results flagged for a closer look

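In 25 of 272 groups of libraries, over 136 genes and gene lists, 1 library lay far from the rest of its group by Dixon's test (9.19%). The limits used give about 1 in 20 groups for independent and normal values, which CPM of related genes need not be. The share was thus not tested against chance. In placebo library 4, the brown fat genes stood above the other placebo libraries: Ucp1 at 1107 CPM against 92.4 to 324, Elovl3 at 179 CPM against 25.5 to 63.8, Slc27a2 at 125 CPM against 10.1 to 43.1, and Hadhb at 562 CPM against 341 to 388. Placebo library 3 stood apart for the epithelial list (1.88 log2 CPM against −3.10 to −2.53), Krt18 (27.4 CPM), Npas2 (1.20 CPM) and Prdm16 (9.09 CPM). Placebo library 1 was high for Lep (556 CPM), Ccdc80 (788 CPM) and the skeletal muscle list (1.97 log2 CPM against −1.82 to −0.93). For that list, corticosterone libraries 1, 3, 4 and 5 held 0.90, 1.32, −1.18 and 1.91 log2 CPM. The part of muscle transcripts in the results was not tested. Placebo library 2 was high for Mpc1 (653 CPM) and Plin1 (685 CPM) and low for Nrg4 (123 CPM). Placebo library 5, the shallowest, was high for Fkbp5 (222 CPM) and low for Plagl1 (0.925 CPM) and for the endothelial list (5.22 log2 CPM).

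Among corticosterone libraries, library 1 was high for Tsc22d3 (813 CPM against 136 to 164) and low for the Schwann cell list (−0.051 log2 CPM against 1.10 to 1.34). Library 3 was high for Ppara (7.23 CPM), Insig1 (493 CPM) and Pdk2 (165 CPM). Library 5 was high for Mest (278 CPM against 9.73 to 55.5) and Sfrp5 (119 CPM against 2.75 to 12.4) and low for Scd1 (29676 CPM against 64523 to 66690.3).

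The corticosterone effect at 13 °C differed between depots for the following genes named, by edgeR's test of the difference. Against brown fat, the effect in subcutaneous fat was higher by 4.79 for Rasd1, 4.58 for Slc7a8, 3.42 for Plagl1, 2.69 for Peg3, 2.65 for Neat1 and 2.23 for Fmr1 on the log2 scale. The differences were −3.17 for Chchd10, −1.47 for Pgam1, −1.87 for Rps2 and −1.65 for 2310061I04Rik. Against gonadal fat they were −1.62 for Pgam1, −2.26 for Lsm4, −1.95 for Rps2 and −1.84 for 2310061I04Rik. The subcutaneous rises of Rasd1 and Peg3 were smaller without the libraries with epithelial markers, as given above.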

How the results depend on the processing

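The count of 493 called genes at 13 °C was 1161 with DESeq2, 1514 with limma and library weights and 911 in a fit of the 9 libraries alone. It was 286 with the replicate number as a block, 278 of them among the 493. The labels do not say whether equal numbers share anything, and what this drop means was not tested. After leaving out the libraries with epithelial markers 36 genes were called, and with their level as a covariate 199. Leaving out 1 library at a time gave 292 to 462, with 292 without corticosterone library 4 and 294 without placebo library 4. The difference between 13 and 22 °C gave 0 calls as reported, 164 with DESeq2, 7 with limma, and 1 each without the epithelial libraries and with the covariate. Leaving out 1 library gave 0 to 13 calls, the most without corticosterone library 5 at 13 °C. List medians moved too without the libraries with epithelial markers. Among them, lipogenesis went from −0.95 to −0.33, the thermogenic list from −1.47 to −2.30 and the mitochondrially encoded list from −0.36 to −1.07.

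The 5 differences from gonadal fat became 2 with RLE size factors, 3 with library totals alone, 12 at a minimum of 50 counts, 25 with the replicate block, 155 with DESeq2, 957 with limma, 189 in a fit of the groups compared and 0 without the epithelial libraries. Leaving out 1 library gave 0 (subcutaneous corticosterone 3) to 30 (subcutaneous corticosterone 5), with 27 without subcutaneous placebo library 3, so the count rests on single libraries. The 43 differences from brown fat became 114 with the replicate block, 306 with DESeq2, 456 with limma, 86 in a fit of the groups compared and 2 without the epithelial libraries. Leaving out 1 library gave 20 (subcutaneous corticosterone 1) to 204 (brown corticosterone 2). In both comparisons the replicate block took same-numbered libraries of a treatment and temperature as the same animal across depots. The labels do not state this. The cause of the shifts in these counts was not tested. Klf9, Rasd1, Sfrp5, Tbc1d4, C4b and Cpa3 kept their call in under 11 of 21 alternative fits. Among the genes named, the 1 sign change of a called gene was Adra2a, at −0.29 without the epithelial libraries.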

Other observations

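The 4 called members of the lists above named here were chosen after their values were seen. The membrane anchors of succinate dehydrogenase, Sdhc (log2 fold change −1.03) and Sdhd (−1.11), and the complex I subunit Ndufa1 (−1.45) fell, as did the acetyl-CoA carboxylase Acacb (−1.27), which makes the malonyl-CoA that holds back fatty acid oxidation. Zim1, an imprinted zinc finger gene next to Peg3 on chromosome 7, was low in all libraries. It held 0.126, 0.0341, 0.0553, 0.174 and 0.116 CPM in placebo and 0.292, 1.59, 1.94 and 1.49 CPM in corticosterone libraries, and its log2 fold change was 3.75 ± 0.74 (adjusted p = 0.00652). The 4 tested genes of milk-secreting cells had a median log2 fold change of 1.90 with no call by edgeR (2 at an unadjusted p under 0.05), and 1 rose with DESeq2 and without the filter on low counts.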
